A study of Mus musculus with 12 samples.

Results

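Macrophages labelled as knockout for the histone methyltransferase DOT1L were compared with wild-type macrophages after exposure to lipopolysaccharide (LPS). The comparison used 6 of the 12 mRNA libraries of the series, namely every library that its label marks as LPS-treated: 3 of wild type (WT) and 3 of the knockout (KO). Both groups were bone marrow-derived macrophages from C57BL/6 mice whose labels read myeloid DOT1L WT or KO and name the gene Lyz2 beside the strain. Marrow cells had been grown for 7 to 8 days with L929-conditioned medium, which supplies the macrophage growth factor M-CSF, and were then given 10 ng/mL of LPS from Escherichia coli for 3 hours. The other 6 libraries, 3 WT and 3 KO without LPS, were used only to set the genotype difference of a described gene beside its value without LPS. The sources used here do not give the deleted exons, the recombinase, the ages of the mice or whether each numbered replicate came from its own mouse. The labels set 3 biological replicates of each genotype. The p-values measure the spread between these libraries, which may still be technical in part.

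DOT1L is the enzyme that methylates lysine 79 of histone H3, a mark found over the bodies of transcribed genes. It acts with partners of the elongation machinery, among them members of the AF9, AF10 and AF4 families. LPS, a component of the bacterial cell wall, is sensed by TLR4 on macrophages, which then switch on cytokines, chemokines, proteases and, through interferon, antiviral genes. The comparison asks which transcripts depend on the genotype while that program runs.

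Each of 24445 genes was represented by its RefSeq transcript with the highest total count, and 11264 genes passed a filter on low counts and were tested. Levels are given as counts per 1e6 counts (CPM), scaled over the 6 libraries, and differences as log2 fold changes of KO over WT with a standard error after ±. A gene is called where its adjusted p in edgeR's quasi-likelihood test was under 0.05. At that threshold 127 genes, or 1.13% of those tested, were called: 113 were higher in KO (1.0%) and 14 were lower (0.124%). Over all tested genes, 5455 values were above 0 and 5809 below, with a median of -0.01. The scaling between libraries sets the bulk of genes near 0, so this balance cannot show whether expression as a whole shifted. The called increases ran from 0.47 to 3.54 (median 0.98), with 54 above 1. The called decreases ran from 0.44 to 1.20 in size (median 0.56), with 2 above 1. In each of the 127 genes the 3 KO libraries lay outside the range of the 3 WT libraries, as they also did upward in 10.8% and downward in 9.92% of all tested genes.

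**Figure D1:**
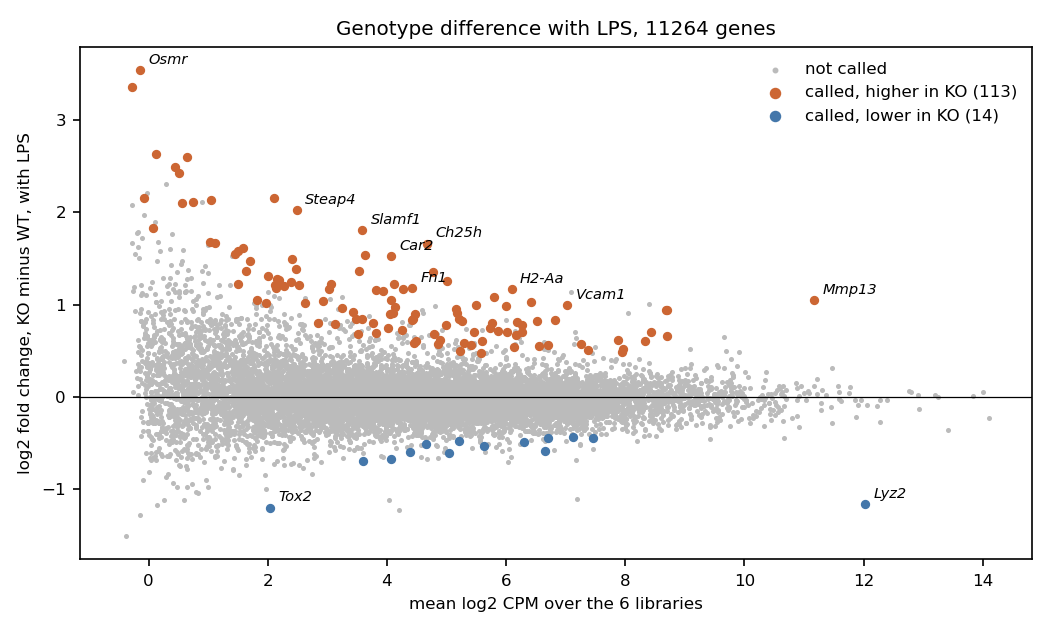
Log2 fold change of KO over WT with LPS (vertical axis) against mean log2 CPM over the 6 libraries (horizontal axis) for the 11264 genes tested. Each point is 1 gene, and coloured points are the 113 called genes higher in KO and the 14 lower. Calls lay mostly above 0 across the range of levels, with Osmr at the top (3.54) and Tox2 (-1.20) and Lyz2 (-1.17) at the bottom.

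The libraries held 8.64 to 13.54 M counts, and each of the 3 KO libraries (12.75 M or more) was deeper than each WT library (11.91 M or less). A floor of 3 counts was 0.222 to 0.347 CPM, and such floors cover counting error only. WT replicate 1, the shallowest library, stood apart. It lay at 33.7 on the leading principal component of the 6 libraries (39.6% of the variance), and the other 5 lay between -12.6 and 6.2. Macrophage genes were abundant in all 6 libraries, with Csf1r, the M-CSF receptor, at 740 to 1024 CPM, the surface marker Adgre1 at 915 to 1237 CPM and the integrin Itgam at 728 to 894 CPM. Cd68 was lower in every KO library (1306 to 1480 CPM against 1495 to 2451 CPM in WT). Of 22 tested macrophage identity genes 13 were higher and 9 lower in KO (median 0.04). Fcgr4 was called higher and Lyz2 lower, where 1.0% and 0.124% of all genes were. Summed over the list, these genes took 55209 to 62659 CPM in WT and 50937 to 53969 CPM in KO. Replicate 2 was male and replicates 1 and 3 were female in both genotypes, judged by Xist and Ddx3y. The number of calls followed the choice of libraries. Leaving out WT replicate 1 raised it to 359 higher and 186 lower (4.76% of 11454 genes), and leaving out WT replicate 2 gave 97 and 32. It dropped to 19 and 1 without WT replicate 3, to 52 and 3 without KO replicate 1, to 60 and 1 without KO replicate 2, and to 16 and 1 without KO replicate 3. None of the 127 genes changed direction in these fits. Of the 113 higher genes, 112 were called also without WT replicate 1, and 13 were called in all 6 fits, as was Lyz2 among the 14 lower genes. These 14 genes were called with the replicate number as a block too. The 13 were Mmp13, Fn1, Serpinb2, Slamf1, Vcam1, Ch25h, Lipg, Ciita, Acp5, B3gnt7, Cnn3, Vash1 and the microRNA gene Mir5107. Mir5107 overlaps Cd74, the invariant chain of MHC class II, which was not called itself, so its reads may be those of Cd74. Every other called gene lost its call in at least 1 of the 6 fits. Where an adjusted p with 1 library left out is given below, it is the highest over these fits.

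**Figure D2:**
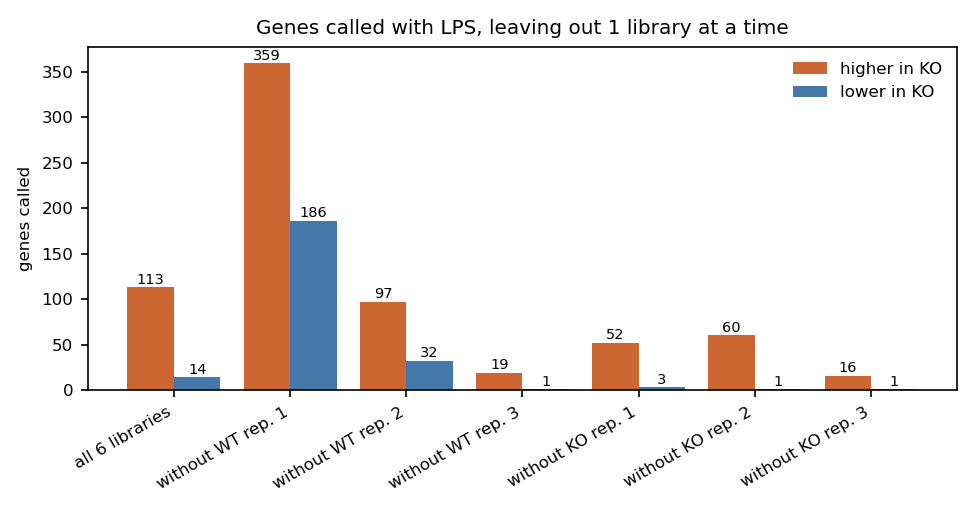
Number of genes called higher (orange) or lower (blue) in KO with LPS, with all 6 libraries and with 1 library left out at a time. Counts of higher genes ran from 16 to 359 and counts of lower genes from 1 to 186, and both maxima came without WT replicate 1.

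The targeted gene did not separate the genotypes in these counts. Dot1l (chromosome 10, 80755101 to 80795461, mm10) lay at 55.5, 56.5 and 50.4 CPM in WT replicates 1 to 3 and at 60.3, 53.0 and 57.7 CPM in KO. The groups overlapped, and the log2 fold change was 0.07 ± 0.09 (adjusted p = 0.754). Each library has 1 count for the transcript, and no source used here says which exons were removed. What share of these reads falls in such exons is not known, and the value does not check the labels. In WT cells Dot1l itself was lower with LPS than without, by a log2 fold change of -0.63 ± 0.11 (adjusted p = 3.00e-04), as were 29.8% of all genes. That fit treated the 12 libraries as independent, though libraries of the same genotype and number deviated together. Lyz2, the lysozyme of macrophages and the myeloid gene that the labels name (chromosome 10, 117277541 to 117282272), did separate them. Its levels were 6581, 5226 and 5500 CPM in WT against 2445, 2790 and 2458 CPM in KO. Every KO library was below every WT library, at a log2 fold change of -1.17 ± 0.10 (adjusted p = 0.00143, and 0.0252 with 1 library left out). The adjacent Lyz1, a near copy with which reads could be shared, lay at 7.05, 6.59 and 7.27 CPM in WT and 11.4, 14.8 and 8.65 CPM in KO. It was higher in every KO library, but its difference of 0.74 ± 0.19 did not pass (adjusted p = 0.113). Lyz2 was the only called gene among 10 tested genes of the lysozyme locus and its neighbours, where 0.124% of all genes were called lower. The fit without WT replicate 1 also called 1 of the 10 higher, where 3.13% of all genes were. The nearby Yeats4, Cpsf6 and Mdm2 differed by -0.03, -0.08 and -0.14.

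Among genes of class II of the major histocompatibility complex (MHC), which presents peptides to CD4+ T cells, Ciita, H2-Aa and H2-Eb1 rose in KO. They were the 3 called of 17 tested genes of this pathway, against 1.0% called higher over all genes. Of the 17, 14 had values above 0 and 3 below, with a median log2 fold change of 0.26 against -0.01 over all genes. With the replicate number as a block 2 of the 17 were called, where 0.391% of all genes were called higher, and without KO replicate 2 also 2, where 0.528% were. The upstream member is Ciita, the coactivator that switches on class II transcription (chromosome 16, 10480014 to 10531064). It lay at 25.1, 23.5 and 26.2 CPM in WT and at 51.6, 41.3 and 47.6 CPM in KO. The lowest KO library was well above the highest WT library, and the log2 fold change was 0.91 ± 0.11 (adjusted p = 0.00362, and 0.0417 with 1 library left out). The gene overlaps Dexi, and the sources used here do not say whether counting used the strand, so reads of the overlap cannot be assigned. Among the target genes, H2-Aa, an alpha chain, lay at 54.5, 40.2 and 31.1 CPM in WT and at 89.1, 96.5 and 95 CPM in KO. It differed by 1.17 ± 0.16 (adjusted p = 0.00874, and 0.0654 with 1 library left out). H2-Eb1, a beta chain, lay at 39.6, 28.8 and 21.4 CPM in WT and at 49.7, 69.4 and 57.8 CPM in KO. It differed by 0.99 ± 0.20 (adjusted p = 0.0472, and 0.175 with 1 library left out). WT replicate 1 was the highest WT library for both chains and for the 4 class II genes described next, which missed the threshold.

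These were the partner chain and the chaperones. H2-Ab1, the beta chain that pairs with H2-Aa, lay at 75.9, 30.4 and 32.1 CPM in WT and at 68.5, 90.9 and 84.2 CPM in KO, so WT replicate 1 fell within the KO range. Its difference was 0.84 ± 0.31 (adjusted p = 0.284). Cd74, the invariant chain, lay at 337, 171 and 161 CPM in WT and at 425, 455 and 464 CPM in KO, a difference of 1.01 ± 0.25 (adjusted p = 0.113). The groups of Cd74 did not overlap, yet WT replicate 1 was about midway between its group mates and the KO libraries. H2-DMa and H2-DMb1, the chains of the peptide exchange factor, differed by 0.58 ± 0.17 (adjusted p = 0.14) and 0.50 ± 0.11 (adjusted p = 0.0656). Without WT replicate 1, 8 of the 17 genes were called higher where 3.13% of all genes were: H2-Aa (1.39), H2-Ab1 (1.38), H2-Eb1 (1.23), Cd74 (1.43), Ciita (0.92), H2-DMa (0.78), H2-DMb1 (0.60) and the ubiquitin ligase Marchf1 (0.52). The DNA-binding subunits that recruit CIITA, Rfx5, Rfxap, Rfxank, Nfya, Nfyb and Nfyc, and the lysosomal protease Ctss were not called in either fit. Of 21 tested genes of MHC class I and its peptide processing, 17 were higher and 0 were called (median 0.21). Their most abundant member, B2m, differed by -0.29 ± 0.18 (adjusted p = 0.50).

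CIITA acts at class II promoters through factors bound to an X box and a Y box. The 250 bases before the RefSeq starts of H2-Aa (chr17:34287824-34288073, minus strand) and H2-Eb1 (chr17:34305617-34305866, plus strand; both GRCm38.p6, the assembly of mm10) are shown because these are the called target genes with an entry in the promoter table. Capitals mark a core of 6 bases of the X box, searched as GCAACT, and the Y box, searched as CTGATTGG, on both strands.
H2-Aa: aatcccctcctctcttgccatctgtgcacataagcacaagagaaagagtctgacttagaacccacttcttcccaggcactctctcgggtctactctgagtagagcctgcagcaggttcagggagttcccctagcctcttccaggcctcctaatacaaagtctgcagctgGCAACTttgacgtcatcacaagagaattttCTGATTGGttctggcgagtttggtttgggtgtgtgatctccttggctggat
H2-Eb1: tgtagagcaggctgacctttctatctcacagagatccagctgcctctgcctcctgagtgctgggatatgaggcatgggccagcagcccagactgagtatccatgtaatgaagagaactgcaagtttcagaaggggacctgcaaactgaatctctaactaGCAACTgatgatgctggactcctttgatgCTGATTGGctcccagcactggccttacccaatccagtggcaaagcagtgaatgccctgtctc
In H2-Aa the X box letters ended 75 bases before the start and the Y box 43 bases before it, with 24 bases between them. In H2-Eb1 they ended 85 and 54 bases before the start, with 23 bases between them, and both motifs lay on the gene's own strand without overlap. Of 32851 promoters of the same length, 9.01% held the X box letters, 3.83% the Y box letters and 0.341% both. The matches are descriptions of the sequence and not measurements of binding.

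**Figure D3:**
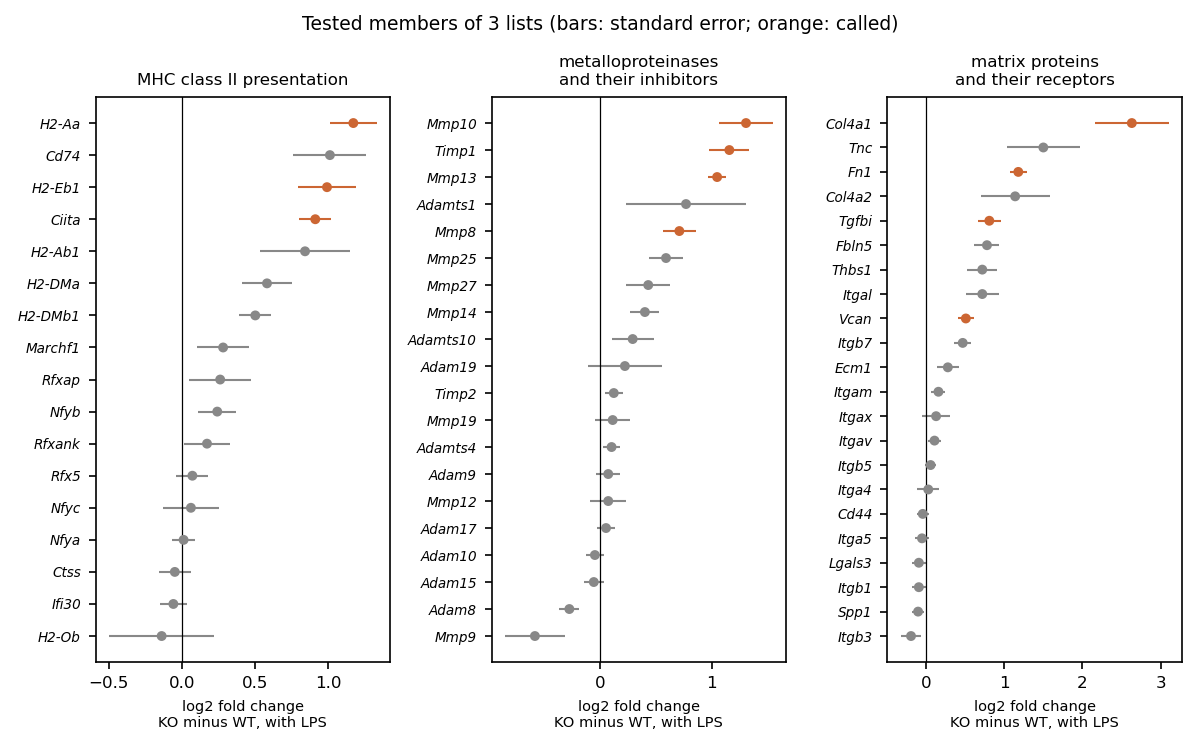
Log2 fold change of KO over WT with LPS (horizontal axis) for the tested members of 3 gene lists, ordered by value. Points are genes, bars are standard errors, and orange marks the called genes. Chains and chaperones of MHC class II lie above 0 and its RFX and NFY factors near 0, while each of the other 2 lists has a few called genes at its upper end.

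The called genes were sorted into groups of known function after their values were seen. Of all 127 called genes 113 were higher in KO, with a median of 0.98. The counts by group, here and below, stand beside that share and are not tests of the groups. Matrix proteins, matrix proteases and protease inhibitors gave 18 genes higher in KO (median 1.04) and 0 lower. The collagenase gene Mmp13 (chromosome 9, 7272514 to 7283333) had the smallest adjusted p of the comparison. Its levels were 1549, 1483 and 1465 CPM in WT and 3089, 3006 and 3204 CPM in KO, a log2 fold change of 1.05 ± 0.08 (adjusted p = 4.91e-04, and 0.0175 with 1 library left out). Both groups were tight, and the KO level was about 2.07 times the WT level. Mmp10, a stromelysin gene on the same chromosome (7502342 to 7510242), lay at 1.48, 2.64 and 2.08 CPM in WT and at 6.11, 4.19 and 5.48 CPM in KO. It differed by 1.31 ± 0.24 (adjusted p = 0.0359, and 0.183 with 1 library left out). Mmp8, the collagenase of neutrophils (7558429 to 7568486), lay at 57.0, 36.7 and 38.9 CPM in WT and at 73.3, 74.4 and 68.1 CPM in KO. It differed by 0.71 ± 0.15 (adjusted p = 0.0473, and 0.233 with 1 library left out). These 3 genes lie within a short stretch of chromosome 9 that holds a cluster of metalloproteinase genes. Timp1, which encodes an inhibitor of these enzymes, lay at 11.2, 6.18 and 8.31 CPM in WT and at 19.2, 18.4 and 18.8 CPM in KO (1.16 ± 0.18, adjusted p = 0.0128, and 0.129 with 1 library left out). It overlaps Syn1 on chromosome X, with the same limit on strand.

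These were the 4 called of 20 tested metalloproteinases and inhibitors, where 1.0% of all genes were called higher, and 16 of the 20 had values above 0 (median 0.17). The block and the fit without KO replicate 2 each called 2 of them. Others did not pass. The macrophage elastase Mmp12, the most abundant of the list, lay at 2343, 2173 and 2878 CPM in WT and 2929, 1908 and 2925 CPM in KO (0.07 ± 0.16, adjusted p = 0.889), and the groups overlapped. The gelatinase Mmp9 differed by -0.59 ± 0.27 (adjusted p = 0.38), and Mmp14, a membrane-bound protease, by 0.40 ± 0.13 (adjusted p = 0.179). Without WT replicate 1 the list had 6 genes called higher, where 3.13% of all genes were, and 1 called lower, where 1.62% were. Mmp14 was then called at 0.55 and the membrane protease Adam8 at -0.34 (adjusted p = 0.00825).

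The promoters of Mmp13 (chr9:7272264-7272513) and Mmp10 (chr9:7502092-7502341), both on the plus strand of GRCm38.p6, are shown because AP-1, a factor that LPS activates, acts on genes of this family through the site TGACTCA. Capitals mark that site, searched on both strands, in the 250 bases before the start.
Mmp13: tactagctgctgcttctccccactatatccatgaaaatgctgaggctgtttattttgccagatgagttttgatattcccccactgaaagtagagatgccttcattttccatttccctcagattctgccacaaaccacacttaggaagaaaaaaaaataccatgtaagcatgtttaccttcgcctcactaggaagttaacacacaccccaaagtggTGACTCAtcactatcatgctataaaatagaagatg
Mmp10: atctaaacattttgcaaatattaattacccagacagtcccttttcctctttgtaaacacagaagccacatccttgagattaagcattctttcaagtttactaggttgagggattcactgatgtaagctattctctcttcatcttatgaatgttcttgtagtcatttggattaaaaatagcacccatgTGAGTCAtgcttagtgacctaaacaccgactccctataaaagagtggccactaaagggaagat
The site ended 28 bases before the start in Mmp13 and 56 bases before it in Mmp10, where it lay on the other strand. These letters occurred in 4.46% of all promoters of this length. In WT cells Mmp13 was higher with LPS than without by a log2 fold change of 5.36 ± 0.13 (adjusted p = 1.19e-12), and 27.6% of all genes were called higher with LPS. As for Dot1l, that fit treated the 12 libraries as independent.

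Among structural matrix genes, Fn1, which encodes fibronectin (chromosome 1, 71585473 to 71653280), lay at 12.4, 13.3 and 12.8 CPM in WT and at 31.3, 27.3 and 28.4 CPM in KO. It differed by 1.18 ± 0.11 (adjusted p = 0.00143, and 0.0254 with 1 library left out), with a gap between groups far wider than the spread within them. The basement membrane collagen Col18a1 differed by 0.78 ± 0.10, the adhesion protein Tgfbi by 0.81 ± 0.15 and the proteoglycan Vcan by 0.51 ± 0.10. Their adjusted p were 0.00775, 0.0351 and 0.0407. Rarer called genes were the fibrillin Fbn1 (1.04 ± 0.19), the collagen Col19a1 (1.48 ± 0.24), the thrombospondin Thbs4 and the collagen Col4a1. In Col4a1 the 3 WT libraries together held 7 reads and the KO libraries 59, a ratio of pooled CPM of 6.48 with an exact binomial 95% interval of 2.96 to 16.8 that covers counting error only. Of 22 tested matrix proteins and receptors, 2 of which passed the filter through KO alone, 16 had values above 0 (median 0.22) and 4 were called, namely Fn1, Vcan, Tgfbi and Col4a1, where 1.0% of all genes were called higher. Col4a1 was among the 2 and had to be higher in KO to be tested. The block and the fit without KO replicate 2 each called 1. The list's most abundant member, the cytokine-like matrix protein Spp1, differed by -0.10 ± 0.08 (adjusted p = 0.592). Without WT replicate 1, 9 of the 22 were called higher, where 3.13% of all genes were, among them the thrombospondin Thbs1, which moved from 0.72 ± 0.19 (adjusted p = 0.125) to 1.03.

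Serpins, which inhibit proteases, were among the higher genes. Serpinb2, an inhibitor of plasminogen activators, lay at 22.6, 17.7 and 16.2 CPM in WT and at 46.1, 47.1 and 40.8 CPM in KO (1.25 ± 0.13, adjusted p = 0.00161, and 0.0311 with 1 library left out). The lowest KO library was well above the highest WT library. Serpina3g, a serpin that interferon induces and a member of a family of near copies, differed by 0.61 ± 0.12 (adjusted p = 0.044). The plasminogen activators and the urokinase receptor did not pass: the urokinase gene Plau differed by -0.15 ± 0.30, its receptor Plaur by -0.08 ± 0.18 and the tissue activator Plat by 0.45 ± 0.23, with adjusted p from 0.428 to 0.881. For Plau the spread was wide, from 64.7 to 162 CPM in WT and from 92.1 to 138 CPM in KO.

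Secreted cytokines and growth factors made up 8 higher and 1 lower gene. Il10, the anti-inflammatory cytokine (chromosome 1, 131019845 to 131024970), lay at 12.1, 12.1 and 9.82 CPM in WT and at 20.7, 23.1 and 19.6 CPM in KO. It differed by 0.90 ± 0.13 (adjusted p = 0.00874, and 0.0948 with 1 library left out). Il12a, the p35 subunit of IL-12, lay at 2.84, 2.39 and 3.02 CPM in WT and at 6.98, 4.94 and 7.03 CPM in KO (1.20 ± 0.21, adjusted p = 0.0276, and 0.139 with 1 library left out). Its partner Il12b, the p40 subunit, lay at 358, 261 and 277 CPM in WT and at 320, 315 and 372 CPM in KO, a difference of 0.17 ± 0.12 that did not pass (adjusted p = 0.572). The subunits of 1 cytokine thus differed in size of change, though the difference between them was not tested. Il33, an alarmin of the IL-1 family, lay at 1.24, 1.24 and 1.51 CPM in WT and at 4.43, 3.52 and 4.32 CPM in KO (1.61 ± 0.23, adjusted p = 0.00874, and 0.0705 with 1 library left out). Il1rl1, the gene of its receptor ST2, was higher in every KO library but missed the threshold (1.10 ± 0.23, adjusted p = 0.0532). Tnfsf4, the gene of the costimulatory ligand OX40L, lay at 66.6, 81.3 and 94.8 CPM in WT and at 153, 133 and 148 CPM in KO (0.83 ± 0.12, adjusted p = 0.00874, and 0.0704 with 1 library left out). The chemokine genes Cxcl3 (0.91 ± 0.17), Ccl24 (1.28 ± 0.24) and Ppbp (2.11 ± 0.43) were called with adjusted p from 0.0385 to 0.0472. Ppbp, which platelets make in quantity, rested on 16 reads in WT and 92 in KO. Nrg1, a ligand of receptors of the EGF family, rested on 3 reads in WT and 44 in KO. Its ratio of pooled CPM was 11.3, with an interval of 3.62 to 56.8 that covers counting error only. Nrg1 passed the filter on low counts through the KO libraries alone, so it had to be higher there to be tested. The lower gene was Tnfsf12, which encodes TWEAK (-0.45 ± 0.09, adjusted p = 0.0472).

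The cytokine genes Tnf, Il6 and Il1b, which macrophages switch on with LPS, were not called. Of 23 tested IL-12, IL-6, IL-10 and TNF family cytokines 15 were higher (median 0.15). Il12a, Il10 and Tnfsf4 were called, where 1.0% of all genes were called higher. The fit without WT replicate 1 called 5 of the 23 higher and 1 lower, where 3.13% and 1.62% of all genes were. Tnf lay at 2010, 1978 and 2111 CPM in WT and at 1754, 1612 and 1902 CPM in KO. All KO libraries were below all WT libraries, yet the difference of -0.21 ± 0.09 did not pass (adjusted p = 0.309). Il6 lay at 193, 194 and 194 CPM in WT and at 257, 175 and 293 CPM in KO (0.32 ± 0.15, adjusted p = 0.396). Il1b lay at 597, 646 and 652 CPM in WT and at 1051, 722 and 1198 CPM in KO (0.65 ± 0.15, adjusted p = 0.0766). In both genes KO replicate 2, the male library, was the lowest of its group and the WT libraries were close together. The inducible nitric oxide synthase Nos2 differed by 0.50 ± 0.13 (adjusted p = 0.113), the cyclooxygenase Ptgs2 by 0.48 ± 0.13 (adjusted p = 0.125) and the chemokine gene Cxcl10 by 0.05 ± 0.08 (adjusted p = 0.838). Of 11 tested genes of arginine, nitric oxide and itaconate 0 were called. Without WT replicate 1, 3 of 12 were called higher, where 3.13% of all genes were. Of 31 tested genes of TLR4 and NF-kB signalling, 16 were higher and 0 were called (median 0.01). Cd14, the LPS co-receptor, differed by 0.16 ± 0.12 (adjusted p = 0.572). Of 27 tested genes of the negative feedback on that signal, 16 were higher and 0 were called (median 0.06). Tnfaip3, which encodes A20, differed by 0.07 ± 0.08 (adjusted p = 0.759). The fit without WT replicate 1 called 2 of the 31 and 2 of the 27 higher, where 3.13% of all genes were.

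Cytokine and immune receptors gave 17 genes higher and 0 lower (median 0.97), where 113 of all 127 called genes were higher (median 0.98). Slamf1, a receptor of the SLAM family found on lymphocytes and activated macrophages (chromosome 1, 171767131 to 171801184), lay at 6.68, 3.96 and 5.01 CPM in WT and at 16.7, 19.4 and 17.6 CPM in KO. It differed by 1.81 ± 0.17 (adjusted p = 0.00143, and 0.0311 with 1 library left out). It was the only called gene of 16 tested SLAM family and costimulatory genes, where 1.0% of all genes were called higher. Of the 16, 8 were higher and 8 lower (median 0.03). The fit without WT replicate 1 called 4 of the 16 higher, where 3.13% of all genes were. Il2ra, the alpha chain of the IL-2 receptor, lay at 9.39, 6.02 and 3.78 CPM in WT and at 14.4, 19.0 and 15.0 CPM in KO (1.37 ± 0.25, adjusted p = 0.0307, and 0.14 with 1 library left out). Other called receptors were Il18rap of the IL-18 receptor (0.84 ± 0.16), Il13ra1 of the receptors for IL-4 and IL-13 (0.54 ± 0.11), the TNF receptor family member Tnfrsf9 (1.55 ± 0.32) and the formyl peptide receptor Fpr2 (0.80 ± 0.14). Surface lectins and Fc receptors among them were Clec10a (0.96 ± 0.17), Klrk1 (0.97 ± 0.13), Siglecf (1.01 ± 0.18) and Fcgr4 (0.52 ± 0.10). Fcgr4, a receptor for IgG, was the most abundant of these, at 229, 201 and 183 CPM in WT and 279, 317 and 283 CPM in KO. The largest fitted change of all was that of Osmr, a receptor for oncostatin M, with 3 reads in WT and 50 in KO. Its ratio of pooled CPM was 12.8 with an interval of 4.14 to 64.3 that covers counting error only. Osmr, Nrg1, Col4a1, Thbs4, Arhgef5, Gfra1, Slc4a4, Arhgef17 and Gpx7 passed the filter on low counts through the KO libraries alone, so they had to be higher there to be tested. They are included in the counts of higher genes by group. Over all tested genes 56 passed through KO alone and 3 through WT alone.

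Adhesion genes gave 9 higher and 0 lower, where 113 of all 127 called genes were higher. Vcam1, the cell adhesion molecule that binds the integrin VLA-4 (chromosome 3, 116110020 to 116129688), lay at 93.8, 76.6 and 89.4 CPM in WT and at 174, 154 and 190 CPM in KO. It differed by 1.0 ± 0.11 (adjusted p = 0.00202, and 0.0355 with 1 library left out). Selp, which encodes P-selectin, lay at 4.08, 2.06 and 1.89 CPM in WT and at 7.05, 9.29 and 5.48 CPM in KO (1.5 ± 0.29, adjusted p = 0.0422, and 0.221 with 1 library left out). The integrin chain Itgb8 (0.95 ± 0.12), the gap junction protein Gja1 (0.80 ± 0.12), the caveolin Cav1 (0.82 ± 0.13), the junction protein F11r (1.23 ± 0.18) and the laminin receptor Bcam (1.39 ± 0.22) followed, with adjusted p from 0.00717 to 0.016. With 1 library left out these rose to values from 0.0676 (Itgb8) to 0.14 (Bcam). The groups did not overlap in any of these genes, though the Selp libraries were at low levels.

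**Figure D4:**
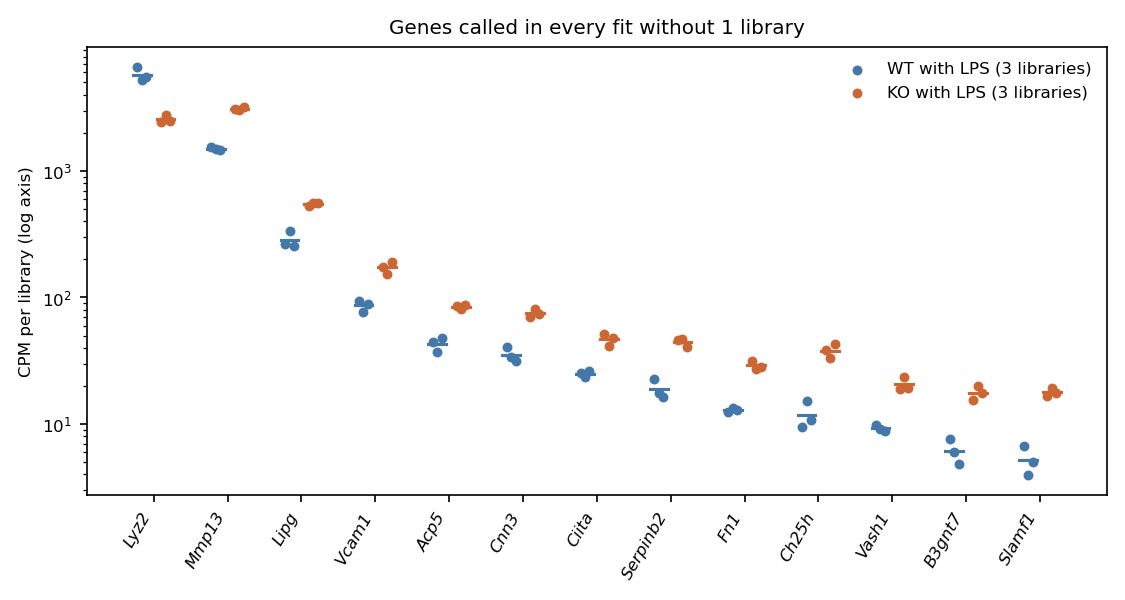
CPM per library on a log axis for Lyz2 and 12 of the 13 higher genes that were called in every fit without 1 library (the microRNA gene Mir5107, which overlaps Cd74, is left out). Blue points are the 3 WT and orange points the 3 KO libraries with LPS, and lines are group means. The groups are apart in each gene, with KO lower in Lyz2 and higher in the rest.

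Enzymes of lipids, oxysterols and eicosanoids gave 8 higher and 2 lower genes. Ch25h, which makes 25-hydroxycholesterol (chromosome 19, 34473783 to 34475148), lay at 9.39, 15.2 and 10.8 CPM in WT and at 38.1, 33.0 and 42.5 CPM in KO. It differed by 1.66 ± 0.17 (adjusted p = 0.00161, and 0.0355 with 1 library left out). It was the only called gene of 19 tested genes of oxysterols and the LXR receptors, where 1.0% of all genes were called higher. Of the 19, 8 were higher (median -0.06). The fit without WT replicate 1 called 2 of the 19 higher, where 3.13% of all genes were. The efflux transporter Abca1 lay at 657, 361 and 328 CPM in WT and at 430, 481 and 380 CPM in KO, where WT replicate 1 alone was high (-0.06 ± 0.24, adjusted p = 0.937). Lipg, the endothelial lipase, lay at 265, 337 and 254 CPM in WT and at 531, 555 and 558 CPM in KO (0.94 ± 0.11, adjusted p = 0.00362, and 0.0417 with 1 library left out). Elovl6, which elongates saturated fatty acids, lay at 11.6, 10.4 and 9.73 CPM in WT and at 16.8, 19.3 and 15.1 CPM in KO (0.70 ± 0.13, adjusted p = 0.0413, and 0.191 with 1 library left out). Ptgs1, the constitutive cyclooxygenase, differed by 0.79 ± 0.14, the lipoxygenase Alox12 by 1.67 ± 0.31 and the sphingosine kinase Sphk1 by 1.25 ± 0.22. Lower were Por, the reductase that feeds electrons to cytochrome P450 enzymes (-0.45 ± 0.08, adjusted p = 0.0324), and the sterol transporter Gramd1b (-0.44 ± 0.09, adjusted p = 0.0416).

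Biosynthesis of sterols and fatty acids showed 1 call. Of 26 tested cholesterol synthesis genes 10 were higher and 0 were called (median -0.01). Hmgcs1, an early enzyme, lay at 228, 332 and 324 CPM in WT and at 293, 272 and 294 CPM in KO, so WT replicate 1 was the lowest and the other WT libraries the highest of the 6. Without WT replicate 1, 23 of the 26 genes were lower (median -0.19), still with 0 called. Without KO replicate 2, 21 of the 26 were higher (median 0.05), and with the replicate number as a block 16 were (median 0.01). Neither fit called any of them, and the direction of the list thus depended on the fit. Of 24 tested genes of fatty acid synthesis and elongation, 8 were higher (median -0.06) and Elovl6 was called, where 1.0% of all genes were called higher. The fit without WT replicate 1 called 2 higher and 1 lower, where 3.13% and 1.62% of all genes were. The block, the fit of all 12 libraries and the fit without KO replicate 2 called 0. Of 22 tested genes of lipid uptake and storage, 8 were higher and 0 were called (median -0.06). Without WT replicate 1, the scavenger receptor Cd36 (-0.29), the lipid carrier Fabp4 (-0.36) and the droplet coat gene Plin2 (-0.43) were called lower, where 1.62% of all genes were. Of 17 tested genes of prostaglandin and leukotriene synthesis 14 were higher (median 0.28), and Ptgs1 was called, where 1.0% of all genes were called higher. The fit without WT replicate 1 called 5 of the 17 higher, where 3.13% of all genes were.

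Interferon-induced genes were represented by 4 calls, Ifi44 (0.55 ± 0.11), Gbp4 (0.66 ± 0.13), Gbp11 (0.72 ± 0.13) and Ifit1bl1 (0.71 ± 0.11), with adjusted p from 0.0153 to 0.0473. Gbp4 and Gbp11 belong to a family of near copies, and Ifit1bl1 overlaps Ifit1 and other Ifit genes, so their counts could be shared. Of 44 tested interferon-stimulated genes in the list, 37 had values above 0 (median 0.07) and Ifi44 was called, where 1.0% of all genes were called higher. In the comparison without LPS, 40 of 43 were above 0 (median 0.42) and 0 were called, where 49.0% of all genes were above 0. With LPS, all 44 values were above 0 without WT replicate 1 (median 0.17), and 6 genes were called higher, where 3.13% of all genes were. Without KO replicate 2, 30 of the 44 were above 0 and 0 were called, and the block and the fit of all 12 libraries, in which 0.834% of all genes were called higher, also called 0. Rsad2, the most abundant, lay at 16482, 16726 and 15509 CPM in WT and at 16285, 17402 and 16592 CPM in KO (0.05 ± 0.07, adjusted p = 0.836). Ifnb1, the gene of interferon beta, lay at 5.44, 10.5 and 8.60 CPM in WT and at 6.03, 5.02 and 4.71 CPM in KO, and its difference did not pass (-0.66 ± 0.22, adjusted p = 0.213). Without WT replicate 1 it was called at -0.86. Of 27 tested STAT, SOCS and IRF genes 20 were higher and 0 were called (median 0.06), with Irf1 at 0.01 ± 0.08 (adjusted p = 0.979).

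Transporters gave 9 higher genes. The largest fitted change among them, 2.16 ± 0.41, was that of the bicarbonate transporter Slc4a4, which rested on 8 reads in WT and 48 in KO. Slc4a4 passed the filter on low counts through the KO libraries alone. Steap4, a metalloreductase, lay at 3.09, 1.73 and 1.51 CPM in WT and at 7.05, 10.5 and 7.41 CPM in KO (2.03 ± 0.27, adjusted p = 0.00775, and 0.0948 with 1 library left out). Car2, a carbonic anhydrase grouped with them, lay at 4.70, 8.65 and 11.3 CPM in WT and at 25.7, 22.3 and 24.7 CPM in KO (1.53 ± 0.22, adjusted p = 0.00874, and 0.0704 with 1 library left out). Acp5, the tartrate-resistant acid phosphatase, lay at 44.6, 36.8 and 47.4 CPM in WT and at 85.2, 81.6 and 87.1 CPM in KO (0.98 ± 0.10, adjusted p = 0.00186, and 0.0254 with 1 library left out). Car2 and Acp5 are both used as osteoclast markers. They were the 2 called of 11 tested such markers, where 1.0% of all genes were called higher. Of the 11, 6 were higher (median 0.03). Signalling and cytoskeletal genes gave 12 higher and 7 lower. The Ras activator Rasgrp1 lay at 20.3, 12.1 and 13.6 CPM in WT and at 38.3, 40.2 and 37.5 CPM in KO (1.36 ± 0.16, adjusted p = 0.00377, and 0.0647 with 1 library left out). The tyrosine kinase Lck (0.68 ± 0.12), the actin-binding genes Cnn3 (1.09 ± 0.11) and Fscn1 (0.74 ± 0.10) and the small GTPase Rnd1 (1.03 ± 0.15) were higher too. Other higher genes were the glycosyltransferase B3gnt7 (1.54 ± 0.17), the cyclin Ccnd2 (0.61 ± 0.09), the angiogenesis regulator Vash1 (1.15 ± 0.13), the complement factor Cfb (0.70 ± 0.10) and the transcription factors Zeb1 (0.78 ± 0.11) and Nr4a3 (0.70 ± 0.13).

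The 14 lower genes were smaller changes, and 12 of them were called in at most 2 of the 6 fits with 1 library left out. Tox2, an HMG box nuclear protein, lay at 5.19, 6.35 and 5.48 CPM in WT and at 2.11, 2.55 and 2.78 CPM in KO (-1.20 ± 0.19, adjusted p = 0.0157, and 0.104 with 1 library left out). Hmga2, a chromatin protein, lay at 111, 122 and 130 CPM in WT and at 86.2, 74.5 and 80.5 CPM in KO (-0.59 ± 0.09, adjusted p = 0.014, and 0.117 with 1 library left out). The groups of both genes were apart. Genes that act on the actin cytoskeleton and on small GTPases were Arap2 (-0.68 ± 0.12), Fblim1 (-0.61 ± 0.09), Iqsec1 (-0.54 ± 0.11) and Pstpip1 (-0.49 ± 0.10). The rest were the secretory protein gene Dipk2a (-0.70 ± 0.14), the death-associated kinase Dapk1 (-0.60 ± 0.12), the kinesin Kif2a (-0.48 ± 0.10) and the phosphodiesterase Pde8a (-0.51 ± 0.10), beside Lyz2, Por, Gramd1b and Tnfsf12. Of 20 tested targets of NRF2, the factor of the oxidative stress response, 16 were lower (median -0.17) and 0 were called. The fit without WT replicate 1 called 5 of the 20 lower, where 1.62% of all genes were: heme oxygenase Hmox1 (-0.49), the glutathione synthesis gene Gclm (-0.44), the antioxidant genes Srxn1 (-0.39) and Prdx1 (-0.38) and the ferritin heavy chain Fth1 (-0.25). Of 21 tested genes of DOT1L and its elongation partners 15 were lower (median -0.09) and 0 were called. Without WT replicate 1, 12 of the 21 were lower (median -0.02). That fit called 1 higher and 1 lower, where 3.13% and 1.62% of all genes were. The fit of all 12 libraries called 1 of 22 lower, where 27 of 11984 genes were. The partner Mllt10, which encodes AF10, differed by -0.32 ± 0.12 (adjusted p = 0.245). Of 35 tested genes of other histone lysine methyltransferases and demethylases 25 were lower (median -0.07) and 0 were called, and without WT replicate 1 16 of the 35 were lower.

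Markers of other cell types were examined because a genotype difference in bulk RNA can come from a different number of cells of a type or a different amount of RNA per cell, which cannot be told apart here. Calls with all 6 libraries in the lists below stand beside 1.0% of all genes called higher. Defining markers of neutrophils (Ly6g), T cells (Cd3e), natural killer cells (Ncr1), plasmacytoid dendritic cells (Siglech), fibroblasts (Col1a1) and erythroid cells (Hbb-bs, at 0) were at 0.189 CPM or less in every library. Of 22 dendritic cell markers 16 were tested, 1 of them through KO alone, and 14 of the 16 were higher (median 0.59) and 2 were called: Cd24a, also made by macrophages and precursors, at 14.6, 11.4 and 9.16 CPM in WT and 27.4, 21.9 and 29.0 CPM in KO (1.17 ± 0.17, adjusted p = 0.00874, and 0.0948 with 1 library left out), and the kynurenine enzyme Kmo (1.21 ± 0.21, adjusted p = 0.025). Summed over the list, the dendritic cell markers took 1603 to 1852 CPM in WT and 1684 to 1735 CPM in KO. Clec9a, a defining marker of cross-presenting dendritic cells, was at 0.371 CPM or less in all 6 libraries, and Flt3 at 0.247 CPM or less. Xcr1, the other defining marker of these cells, lay at 0.618, 1.32 and 1.42 CPM in WT and at 2.18, 2.1 and 2.24 CPM in KO. It was higher in every KO library, and its difference of 0.90 ± 0.30 did not pass (adjusted p = 0.208). Of 12 tested monocyte markers 10 were higher (median 0.35), and Vcan and Fn1 were called. Their sum was 532 to 626 CPM in WT and 651 to 721 CPM in KO. The classical monocyte genes Ccr2 (0.07 ± 0.28, adjusted p = 0.933) and Ly6c2 (-0.01 ± 0.44, adjusted p = 0.997) overlapped between the groups. Of 19 stromal and endothelial markers 6 were tested, and all 6 had values above 0 (median 0.43) with 0 called. In the fit without WT replicate 1, 7 of 7 were above 0. Pdgfrb, a receptor of pericytes and fibroblasts, was then called (1.22), where 3.13% of all genes were called higher. Their sum was 153 to 200 CPM in WT and 194 to 213 CPM in KO, most of it from Kdr and Vwf, and 1 of the 19 was at 0 in all 6 libraries. Of 16 erythroid and megakaryocyte markers 6 were at 0 in all 6 libraries and 3 were tested, all 3 with values above 0 (median 0.57). Ppbp was the called one, and the platelet chemokine Pf4 lay at 112, 116 and 112 CPM in WT and at 155, 205 and 145 CPM in KO (0.57 ± 0.12, adjusted p = 0.0519). The sum of this list was 186 to 210 CPM in WT and 232 to 293 CPM in KO, so it did not overlap between the groups. Of 9 tested neutrophil markers 6 were above 0 (median 0.12) and Mmp8 was called, with a sum of 204 to 270 CPM in WT and 230 to 255 CPM in KO. Of 4 tested lymphocyte markers 3 were above 0 (median 0.35) and Lck was called, with a sum of at most 248 CPM in WT and 214 CPM in KO. The part of such cells in the called differences was not tested.

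Without LPS, no gene of 11622 was called between the genotypes by edgeR (0.00%), with 841 at an unadjusted p under 0.05. Without untreated WT replicate 1, 749 genes (6.34%) were called. Untreated and LPS-treated libraries of the same genotype and number deviated together from their group means, with correlations over genes of 0.63, 0.61 and 0.35 in WT and 0.28, 0.47 and 0.21 in KO, so the conditions do not give independent estimates. Of the 113 genes higher with LPS, 74 were tested without it and 39 were too low there. Of those 74, 70 were higher without LPS as well, with a median of 0.77 where the same genes had 0.85 with LPS, and 49.0% of all genes were higher. In 52 of them the untreated groups did not overlap in the same direction, as in 8.15% of all genes. The 14 lower genes were also lower without LPS, with a median of -0.36 against -0.56, and 13 did not overlap, where 6.59% of all genes did so. Lyz2 differed by -1.16 ± 0.11 without LPS, H2-Aa by 1.15 ± 0.16, Fn1 by 1.16 ± 0.20 and Mmp13 by 1.20 ± 0.14, each close to its value with LPS.

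A smaller set was near 0 without LPS. The semaphorin Sema4c differed by -0.09 untreated and by 0.71 ± 0.12 with LPS. Vcam1 differed by -0.15 ± 0.57 untreated and by 1.0 ± 0.11 with LPS, an interaction of 1.21 ± 0.53 (unadjusted p = 0.039). Elovl6 lay at 17.5, 28.5 and 27.7 CPM in untreated WT and at 22.5, 19.8 and 23.1 CPM in untreated KO, so its groups overlapped there and were apart with LPS. Its interaction was 0.90 ± 0.24 (unadjusted p = 0.00232). Zeb1, a repressor of epithelial genes, lay at 2.93, 2.96 and 2.5 CPM in untreated WT and at 2.83, 3.30 and 2.56 CPM in untreated KO, with 26.6, 22.2 and 21.0 CPM in WT and 39.9, 37.3 and 41.7 CPM in KO after LPS. Its interaction was 0.76 ± 0.21 (unadjusted p = 0.00261). The opposite order was seen in Gprc5c, an orphan receptor, which differed by 1.24 ± 0.14 untreated and by 0.58 ± 0.11 with LPS (interaction -0.62 ± 0.18, unadjusted p = 0.00382). None of these passed adjustment: the interaction gave 0 calls among 11984 genes (0.00%), 288 genes had an unadjusted p under 0.05, and 23 of the 126 called genes in that fit were among them. A difference between the conditions is therefore not shown for any single gene. The interaction fit treated the 12 libraries as independent, so its standard errors and p-values leave out the deviations shared by libraries of the same genotype and number.

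**Figure D5:**
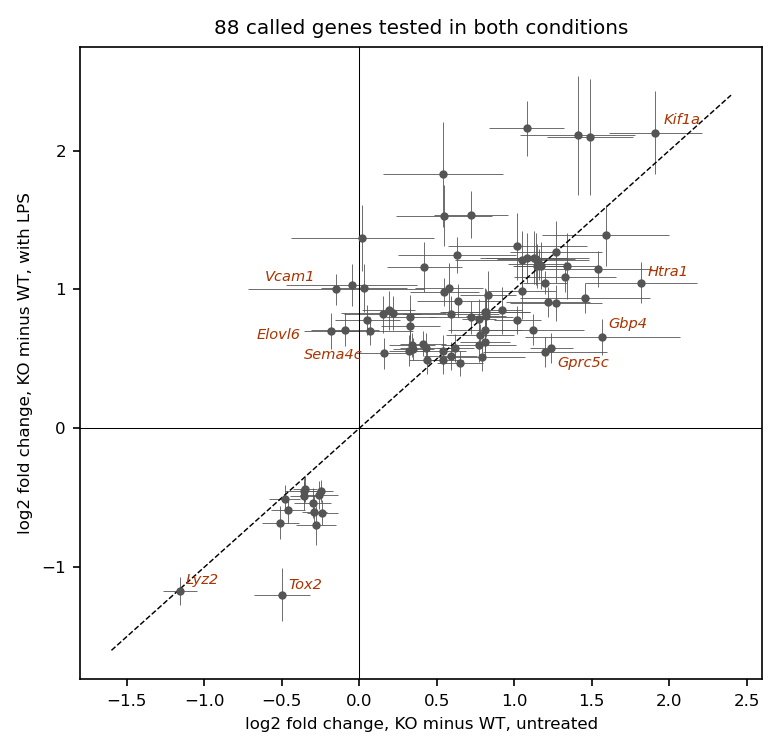
Log2 fold change of KO over WT with LPS (vertical axis) against that without LPS (horizontal axis) for the 88 called genes tested in both conditions. Bars are standard errors and the dashed line marks equal values. Most points lie near the line, Vcam1, Elovl6 and Sema4c sit near 0 on the horizontal axis, and Gbp4, Htra1 and Gprc5c lie below the line.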

How the data were processed

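Messenger RNA of 6 LPS-treated libraries (3 WT, 3 KO) was analysed, with the 6 untreated libraries beside it. The authors deposited, for 35745 RefSeq transcripts, whole-number counts of reads and RPKM. Per the submitters' processing notes, STAR 2.5.2b, SAMtools 1.3.1 and mm10 were used, and the sources used here give neither the counting tool nor its strand setting. Per the labels, poly(A) libraries from 700 ng of RNA were read single-end at 50 bp. Reads shared by isoforms appear in each: in 3305 genes with several transcripts and 1000 reads, the count of the lowest was 97.9% of the highest at the median, hence 1 transcript per gene. The 117 unnamed transcripts (0.259% to 0.738% of counts) were left out. The main test was edgeR's quasi-likelihood test (edgeR 4.0.16; filterByExpr, TMM, robust dispersions, Benjamini-Hochberg adjustment over all tested genes). It was tested on simulated data. For 3 against 3 libraries the smallest p of an exact permutation test is 0.1, so none was used. Standard errors are approximate, from the test's F statistic. Alternatives were DESeq2 1.42.0, limma 3.58.1 on counts and on the authors' RPKM, other filters and scalings, a replicate block and leaving out each library. Gene names (35440 transcripts from RefSeq, 188 from GENCODE), coordinates and promoters come from tables on GRCm38.p6, the assembly of mm10, and the promoter table held 99 of the 127 called genes.

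Genes given with full values were Dot1l, Lyz2 and Lyz1, the called genes with the largest changes (10 up, 8 down, mean log2 CPM of at least 2, no overlap), the 6 most abundant called in each direction, up to 4 called members of each of 37 lists or the most abundant member of a list without a call, and 4 by the interaction. Every called gene could be named with its group. Uncalled list members beyond these were named after their values were seen. The compared libraries and the lists were chosen with earlier results of these data known, and the functional groups after seeing the calls. A few genes that the rule for full values would name are not reported here.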

Additional observations from a re-analysis of the deposited data

How the results depend on the processing

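Called genes numbered 113 higher and 14 lower in KO with LPS. They numbered 175 and 62 in DESeq2, 212 and 64 without a filter on low counts, 59 and 6 at 10 CPM or more in 3 libraries, and 16 and 1 in the female libraries. The fit of all 12 libraries gave 100 and 27, and log2 RPKM gave 84 and 2 (pseudocount 0.1) or 91 and 2 (pseudocount 1). Limma-voom (112 and 13), DESeq2 size factors (114 and 14) and sums over transcripts (95 and 11) stayed within 1.5 times. Leaving out 1 library gave 16 to 359 higher and 1 to 186 lower. The share of higher genes among the calls was thus smaller in DESeq2, without a filter, in all 12 libraries and without WT replicate 1 or 2. No called gene reversed in any of these 17 alternatives. With the replicate number as a block, 44 and 3 genes were called, 43 and 1 of them from the 127. Deviations of same-numbered WT and KO libraries correlated at -0.09, 0.07 and 0.10. Same-numbered libraries matched by sex, and the sources used here do not say whether they shared a litter or day. Without untreated WT replicate 1, 749 genes were called between untreated genotypes, and without WT replicate 1 in both conditions 24 passed the interaction. The block gave 0 calls in both.

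Signs turned only in genes without a call. In both RPKM fits Abca1 became 0.05, Acod1, Aff1 and Hmgcs1 0.02 and Yeats4 0.01, and Ly6c2 became 0.06 (pseudocount 0.1) and 0.01 (pseudocount 1). Limma-voom gave 0.01 for Abca1 and 0.07 for Ly6c2, the replicate block 0.01 for Abca1, and summed transcripts -0.02 for Irf1. In the female libraries Ccr2 was -0.39, Hmgcs1 0.09, Irf1 -0.07, Marchf1 -0.01, Plau 0.11 and Plaur 0.10. With 1 library left out, Abca1 ran from -0.24 to 0.32, Acod1 from -0.13 to 0.12, Aff1 from -0.11 to 0.05, Ccr2 from -0.20 to 0.44 and Hmgcs1 from -0.20 to 0.05. Irf1 ran from -0.05 to 0.04, Ly6c2 from -0.34 to 0.45, Mmp12 from -0.03 to 0.25 and Nsd3 from -0.28 to 0.04. Plau ran from -0.46 to 0.07, Plaur from -0.24 to 0.08 and Yeats4 from -0.10 to 0.03. The cause of these shifts was not tested. Genes under about 10 reads in a group are limited by depth, and KO libraries were deeper than WT libraries.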
